A study of Drosophila melanogaster with 9 samples.

Results

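Cytochrome P450 genes were described across 3 stages of a *Drosophila* brain tumor. They were found as the features whose symbol begins with Cyp followed by a digit, which gave 64 of the 13215 features in the 3 tables. One of the 64, *Cyp1*, encodes cyclophilin 1, a peptidyl-prolyl isomerase and not a P450, and was set aside once this was seen, which left 63 P450 genes, among them the annotated pseudogene *Cyp6t2Psi*. P450 genes whose symbols do not begin in this way, such as the Halloween genes of ecdysone synthesis, are given only for context.

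All groups carried *NΔecd*, a Notch receptor without its extracellular domain that signals constantly, expressed under UAS control in random clones of larval neural tissue by an actin flip-out driver together with GFP. N-FACS was GFP-positive cells sorted from the central nervous system of 3rd instar larvae 4 days after clone induction. N-T0 was the whole mass of first allografts grown for 8 to 10 days in adult w1118 hosts, and N-T3 that of the 4th serial allograft grown for 6 to 8 days. Each group had 3 libraries, each pooled from 150 larval brains in N-FACS and from 25 hosts in N-T0 and N-T3, and there was no group without *NΔecd*. The allograft masses were not sorted, so that host cells could be in them, and the sorted cells could include clonal neurons and glia.

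The values are mean normalized counts of each group, that is, counts divided by a factor for library size and averaged over the 3 libraries. They were solved from the authors' means over pairs of groups, as the 3 tables used here hold no value per library. Depth and replicate spread are therefore unknown, no difference has a replicate check, and all comparisons are descriptions without a test. A gene was counted as higher or lower where its 2 group means differed by at least 2-fold. A group mean under 3 normalized counts or under 5% of the sum of the 3 group means was treated as lying at that floor, and a ratio against it is a bound.

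P450 enzymes are membrane-bound heme enzymes that use molecular oxygen to oxidize lipids, hormones and foreign compounds. Most insect P450s sit in the endoplasmic reticulum and receive electrons from a common reductase, Cpr, whereas the mitochondrial ones use a ferredoxin and its reductase. In flies the family is divided into the CYP2, CYP3, CYP4 and mitochondrial clans. Many CYP3 members act in the detoxification of plant toxins and insecticides in gut, fat body and Malpighian tubules, and others make or degrade ecdysteroids, cuticle lipids and pheromones.

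Of the 63 P450 genes, 53 were in all 3 tables and 10 in fewer. An overall mean of at least 10 normalized counts, over the 3 groups, was reached by 38 genes and missed by 15. The 38 genes comprised 24 of 34 CYP3 genes, 9 of 18 CYP4 genes, 2 of 7 mitochondrial genes and 3 of 4 CYP2 genes. Coordinates of the BDGP6.54 annotation were found for 62 of the 63, with 27 on chromosome arm 2R, 12 on 2L, 10 on X, 9 on 3R and 4 on 3L.

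P450 transcripts were more abundant in both allograft stages than in the sorted primary tumor. The summed level of the 53 genes was 1609 normalized counts in N-FACS, 4886 in N-T0 and 3502 in N-T3. The N-T0 sum was thus 3.04 times and the N-T3 sum 2.18 times that of N-FACS, and the N-T3 sum was 0.717 times that of N-T0. *Cyp4g1* alone made up 23.0% of the N-T0 sum, against 4.16% in N-FACS and 6.76% in N-T3. Without it, the sums were 1542, 3762 and 3265 normalized counts in N-FACS, N-T0 and N-T3. The cyclophilin gene *Cyp1* had 34194, 21229 and 18715 normalized counts at these stages and with it included N-FACS would have the largest sum.

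In N-T0 against N-FACS, 23 of the 38 genes were at least 2-fold higher, or 60.5%, where 14.1% of all 9327 features of the same minimum level were. One gene, *Cyp4g15*, was at least 2-fold lower, where 13.4% of all features were. The minimum level is a mean over N-FACS, N-T0 and N-T3. Genes high in both allograft stages therefore pass it more easily than genes high only in N-FACS. Among genes under it, *Cyp12e1*, *Cyp12b2*, *Cyp301a1* and *Cyp6t2Psi* were at least 2-fold lower in N-T0 than in N-FACS. *Cyp6d2*, *Cyp4d8* and *Cyp4e3*, also under it, were at least 2-fold higher. The median log2 ratio was 1.44 over the 38 genes, with 7 ratios taken at their bound, and 0.01 over all features. In N-T3 against N-FACS, 21 genes were higher and 2, *Cyp4g15* and *Cyp6v1*, were lower, where 13.0% of all features were higher and 14.2% lower, and the median log2 ratio was 1.32, against −0.02 over all features. In N-T3 against N-T0, 0 of the 38 genes were higher by 2-fold and 7 were lower, or 18.4%. Of all features, 1.54% were higher and 5.06% lower. The median log2 ratio of the later against the earlier allografts was −0.35 over the 38 genes, against −0.02 over all features. Among genes under the minimum level, *Cyp4e3*, *Cyp301a1* and *Cyp4ac2* were higher in N-T3 than in N-T0, with log2 ratios of 1.53, 1.40 and 1.01. At a lower limit of 0.5 in log2, 29 of the 38 genes were higher and 2 lower in N-T0 than in N-FACS, where 26.3% of all features were higher and 24.4% lower. In N-T3 against N-FACS, 27 were higher and 5 lower at this limit, where 25.0% of all features were higher and 26.9% lower. In N-T3 against N-T0, 1 was higher and 13 lower, where 5.95% of all features were higher and 12.8% lower. Each group enters 2 of these 3 comparisons, so that they are not independent of each other.

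**Figure D1:**
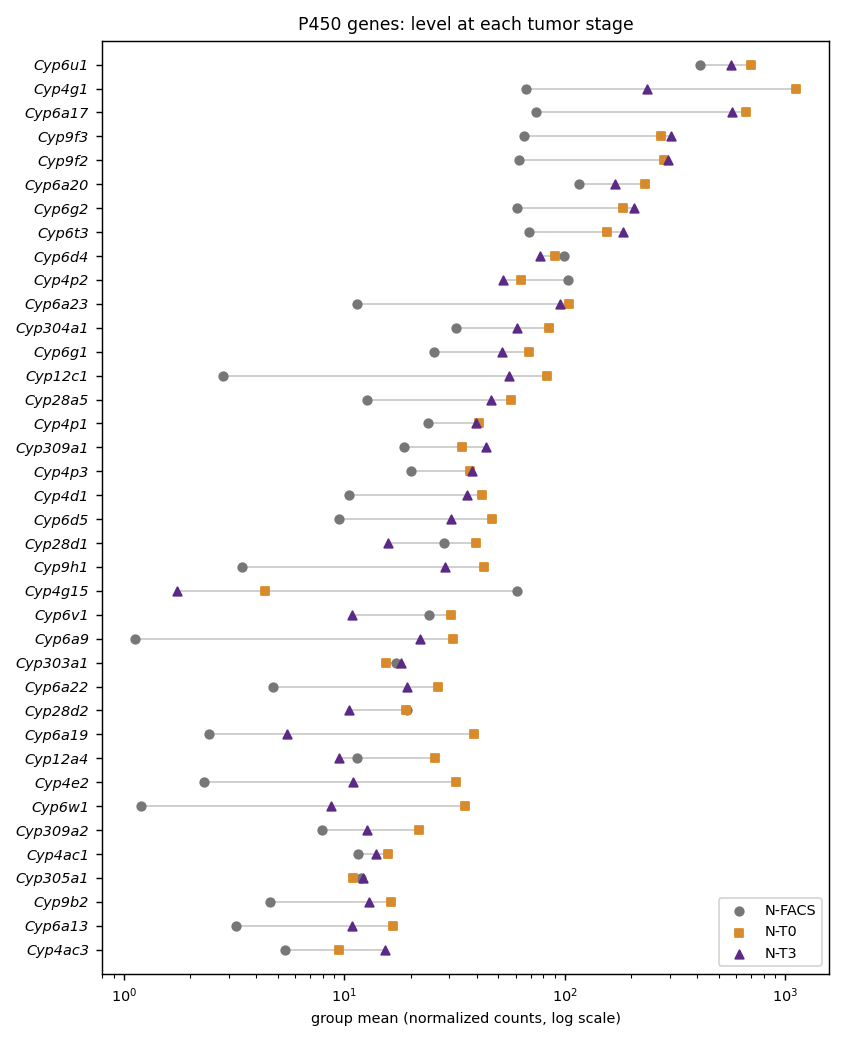
Group means in normalized counts (log axis) of the 38 P450 genes with an overall mean of at least 10, ordered by that mean. Each point is 1 group mean over 3 libraries without an error, and the gray line spans the 3 stages; *Cyp4g15* is the gene whose N-FACS mean, at 60.8, lies far above both allograft means.

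**Figure D2:**
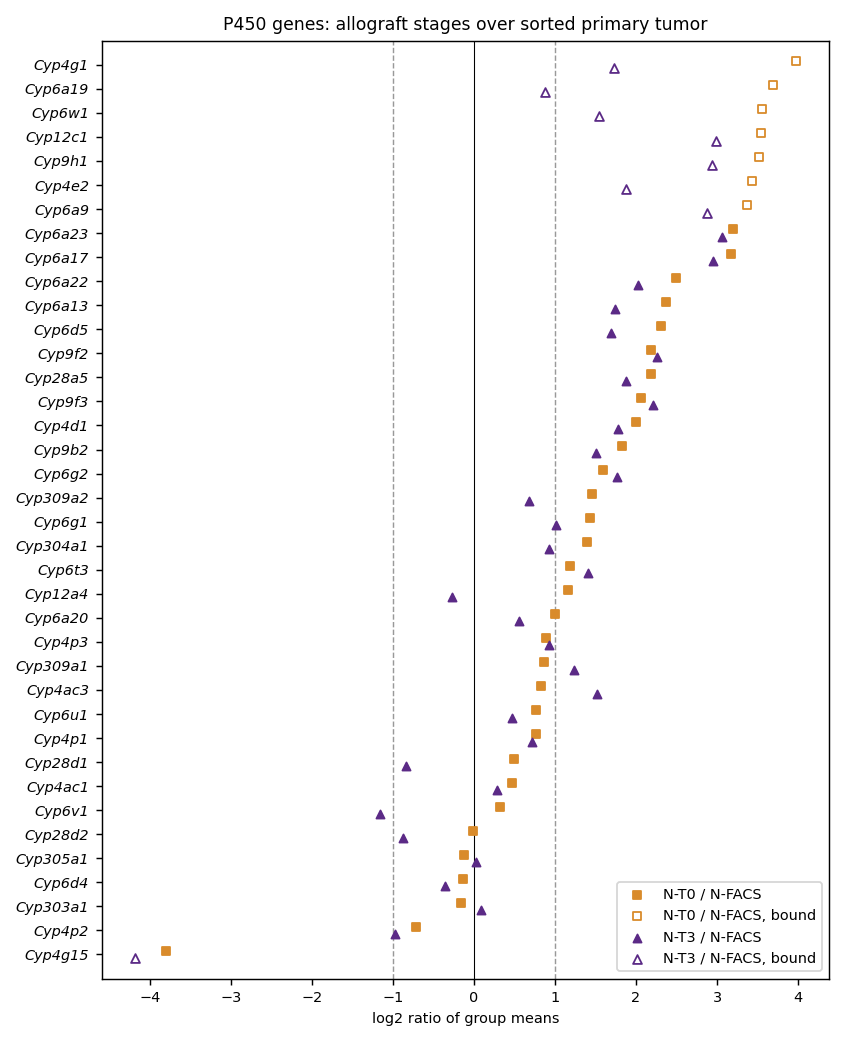
Log2 ratios of the N-T0 and N-T3 means over the N-FACS mean for the same 38 genes, with open symbols for bounds and dashed lines at 2-fold. Squares lie past the right dashed line for 23 genes and triangles for 21, and *Cyp4g15* is the lowest in both comparisons.

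*Cyp4g1* had the highest level per kilobase of exon of any P450 gene, at 493 normalized counts per kb in N-T0. It encodes the decarbonylase of oenocytes that makes the hydrocarbons of the adult cuticle, and lies on X from 467057 to 469335. Its mean was 67.0 normalized counts in N-FACS, 1124 in N-T0 and 236.9 in N-T3. It was thus at least 15.7-fold higher in N-T0 than in N-FACS and at least 3.32-fold higher in N-T3 than in N-FACS, and its log2 ratio in N-T3 against N-T0 was −2.25. With a floor of 10% of the sum, the bound in N-T3 against N-FACS was a log2 ratio of 0.73, under the limit. The first allografts stood highest and the later allografts lay between the other groups. Fatty acid synthases of the oenocyte list were ordered in the same way, with *FASN2* at 31.3, 162.1 and 96.0 and *FASN3* at 55.4, 125.0 and 68.9 normalized counts in N-FACS, N-T0 and N-T3. For *FASN3* the log2 ratio in N-T3 against N-FACS was only 0.32. The other genes of this list, *FarO* and *desatF*, had no values. This order is not particular to oenocyte genes, as the summed hemocyte, adult gut and adult fat body lists given below had it too.

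Its paralog *Cyp4g15*, known from the larval nervous system and located on X from 11477058 to 11483233, had the opposite pattern. Its mean was 60.8 normalized counts in N-FACS, 4.38 in N-T0 and 1.74 in N-T3. The log2 ratio was −3.79 in N-T0 against N-FACS and at most −4.18 in N-T3 against N-FACS. Glial transcription factor *repo* and the astrocyte gene *alrm* were also nearly absent from the allografts, at 537 and 459 normalized counts in N-FACS, against 7.06 and 13.1 in N-T0, and their N-T3 means were solved as just below 0. As these are bulk samples, fewer cells of a type and less RNA per cell cannot be told apart. Of the 6 glial genes with values, 4 were lower in both allograft stages than in N-FACS and 1, the glutamate transporter gene *Eaat1*, was higher.

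The remaining CYP4 genes differed among themselves. *Cyp4p2* had 103.9, 63.2 and 52.8 normalized counts in N-FACS, N-T0 and N-T3, and its log2 ratio of −0.98 in N-T3 against N-FACS lay just inside the 2-fold limit. Its neighbors *Cyp4p1* and *Cyp4p3* instead had log2 ratios of 0.77 and 0.89 in N-T0 against N-FACS. *Cyp4d1* was higher in both stages, with log2 ratios of 2.00 and 1.77 in N-T0 and N-T3 against N-FACS. *Cyp4e2* had 2.31 normalized counts in N-FACS, 32.2 in N-T0 and 10.996 in N-T3. *Cyp4ac3* had the highest log2 ratio of all 38 genes in N-T3 against N-T0, at 0.69. Over the 9 CYP4 genes, 3 were higher and 1 lower in N-T0 than in N-FACS, and 4 were higher and 1 lower in N-T3 than in N-FACS.

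The CYP3 clan, with 24 of the 38 measured genes, held most of the genes that were higher in the allografts. In N-T0 against N-FACS, 17 of its 24 genes were higher and 0 lower, with a median log2 ratio of 1.94, and in N-T3 against N-FACS, 16 were higher and 1 lower, with a median of 1.52. Of all features, 14.1% were higher and 13.4% lower in N-T0 than in N-FACS, and 13.0% and 14.2% in N-T3. *Cyp6a17*, which affects temperature preference and pyrethroid tolerance of flies, had 73.8 normalized counts in N-FACS, 661.7 in N-T0 and 571 in N-T3, or 8.97-fold and 7.74-fold more in N-T0 and N-T3 than in N-FACS. The adjacent *Cyp6a23* had 11.5, 105.1 and 95.3 normalized counts in N-FACS, N-T0 and N-T3, with log2 ratios of 3.20 and 3.06 in N-T0 and N-T3 against N-FACS. The size of these differences depends on the scale. Without scaling, the log2 ratios were 2.49 and 2.32 for *Cyp6a17* and 2.49 and 2.40 for *Cyp6a23*. With a scale from features of at least 1000, they were 3.36 and 3.15 for *Cyp6a17* and 3.33 and 3.19 for *Cyp6a23*. *Cyp9f3* had 65.5, 273.9 and 303.6 normalized counts, and its neighbor *Cyp9f2* 61.8, 281 and 294, in N-FACS, N-T0 and N-T3. For these 4 genes N-T0 and N-T3 differed by at most 1.16-fold. *Cyp6a17* and *Cyp6a23*, and *Cyp9f2* and *Cyp9f3*, are neighboring paralogs whose reads the counting may not fully separate.

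*Cyp6u1* had the highest level per kilobase in the sorted cells. It had 412 normalized counts in N-FACS, 703 in N-T0 and 569.9 in N-T3, with log2 ratios of 0.77 and 0.47 in N-T0 and N-T3 against N-FACS, under the 2-fold limit. Its share of the P450 sum was 25.6% in N-FACS, 14.4% in N-T0 and 16.3% in N-T3. Per kilobase of exon, the leading gene was *Cyp6u1* in N-FACS at 203 normalized counts per kb, *Cyp4g1* in N-T0 at 493 per kb and *Cyp6a17* in N-T3 at 331 per kb. A stretch of 80 exon bases of *Cyp6u1* is shared with *Ufsp1* on the same strand.

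Several CYP3 genes with a known role had intermediate levels. *Cyp6g1*, whose overexpression gives resistance to DDT and neonicotinoids, had 25.6 normalized counts in N-FACS, 68.9 in N-T0 and 51.8 in N-T3, so that N-T0 was 2.69-fold and N-T3 2.02-fold higher than N-FACS. The N-T3 value lay at the limit, with a log2 ratio of 1.02 that was 0.998 with a scale from neuron genes and 0.78 without scaling. *Cyp6t3*, required in the prothoracic gland for ecdysone synthesis, had 69.0, 156.3 and 183.2 normalized counts in N-FACS, N-T0 and N-T3, and log2 ratios of 1.18 and 1.41 in N-T0 and N-T3 against N-FACS, the N-T0 ratio being 0.84 without scaling. *Cyp6g2*, between these genes on 2R, had 60.9, 183.2 and 206 normalized counts. *Cyp6a20*, which limits aggression in males, had 115.9, 231 and 169.7 normalized counts and was 1.99-fold higher in N-T0 than in N-FACS, just short of the limit. *Cyp6d4* differed little among stages, with 99.2, 90.6 and 77.5 normalized counts in N-FACS, N-T0 and N-T3.

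A group of genes was near the floor in the sorted cells. *Cyp12c1*, of the mitochondrial clan, had 2.83 normalized counts in N-FACS, 82.7 in N-T0 and 56.2 in N-T3, or at least 11.7-fold and at least 7.93-fold more in N-T0 and N-T3 than in N-FACS. *Cyp9h1* had 3.43, 43.1 and 28.7 normalized counts, at least 11.5-fold and at least 7.63-fold more. *Cyp6a9* had 1.12, 31.0 and 22.1 normalized counts, at least 10.3-fold and at least 7.35-fold more. For these 3 genes N-T3 and N-T0 differed by less than 2-fold. Lower bounds in N-T0 against N-FACS were also found for *Cyp6a19*, *Cyp6w1*, *Cyp4e2* and *Cyp4g1*. In all, 11 of the 53 genes had fewer than 3 normalized counts in N-FACS, against 3 in N-T0 and 2 in N-T3. Such low means are differences between larger values and depend on the scale, and the same count over all features was not made.

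The 7 genes that were at least 2-fold lower in N-T3 than in N-T0 came from 3 clans. Of these, only *Cyp4g1* had an overall mean of at least 30 normalized counts. *Cyp6a19* had the lowest ratio, with 5.52 normalized counts in N-T3, against 38.8 in N-T0, and 2.43 in N-FACS. *Cyp6w1* had 8.71 normalized counts in N-T3, against 35.3 in N-T0, and 1.19 in N-FACS. *Cyp4g1* followed *Cyp6a19*, and the log2 ratios of *Cyp6w1* and *Cyp4e2* in N-T3 against N-T0 were −2.02 and −1.55. All 4 had an N-T3 mean between those of N-FACS and N-T0. The other genes were lower in N-T3 than in both other groups: *Cyp6v1* had 10.9 normalized counts in N-T3, against 30.4 in N-T0 and 24.3 in N-FACS. *Cyp28d1*, linked to nicotine tolerance, had 15.8 in N-T3, against 39.8 in N-T0 and 28.3 in N-FACS. *Cyp12a4*, whose overexpression gives resistance to lufenuron, had 9.49 in N-T3, against 25.7 in N-T0 and 11.5 in N-FACS. Over the 38 genes, 29 had a negative log2 ratio in N-T3 against N-T0 and 9 a positive one. Of all 9327 features, 4900 had a negative ratio and 4171 a positive one. Such signs depend on the scale, as the median of all features was −0.02 here and 0.09 without scaling.

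**Figure D3:**
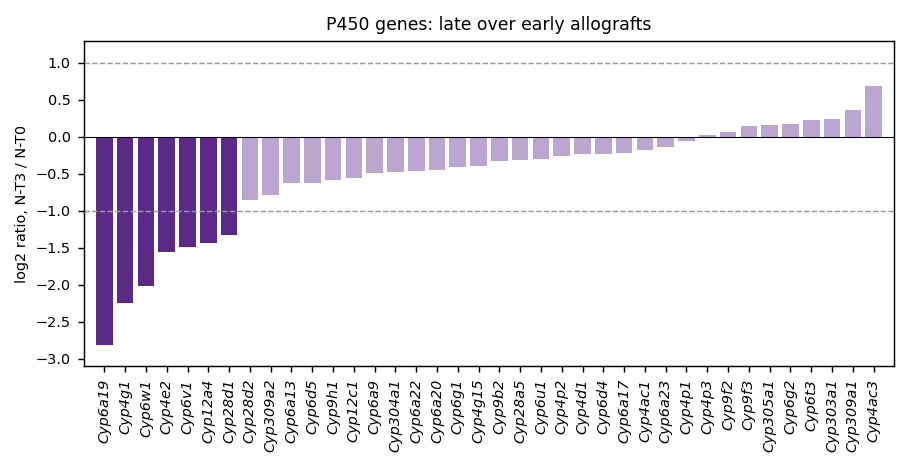
Log2 ratio of the N-T3 mean over the N-T0 mean for the 38 P450 genes, with dashed lines at 2-fold and dark bars for the 7 genes past it. The bars run between −2.81 for *Cyp6a19* and 0.69 for *Cyp4ac3*, and none reaches the upper line.

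Levels of markers of other cell types differed among the stages too. The summed level of 7 adult gut genes with values, mostly digestive proteases and amylases, was 16.4 normalized counts in N-FACS, 843 in N-T0 and 54.3 in N-T3. All 7 were higher in N-T0 than in N-FACS and lower in N-T3 than in N-T0. In N-T3 against N-FACS 0 passed 2-fold, but all N-FACS means lay under the floor. These ratios are therefore lower bounds or have both means at the floor, and they do not show equal levels in N-FACS and N-T3. The 2 Malpighian tubule genes with values summed to 19.5, 59.2 and 20.3 normalized counts in N-FACS, N-T0 and N-T3. The 7 adult fat body genes summed to 9331, 15648 and 14192. Most of each sum was *FASN1*, at 8990, 13153 and 13595 normalized counts in N-FACS, N-T0 and N-T3. Of the 7, 5 were higher in N-T0 than in N-FACS, the yolk protein genes *Yp1*, *Yp2* and *Yp3* among them, and 3 in N-T3 than in N-FACS. In N-T3 against N-T0, 0 of the 7 were higher and 5 lower, with a median log2 ratio of −1.33. *Yp1* had 15.8, 436.1 and 86.5 normalized counts at these stages. Of the 9 hemocyte genes, 8 reached an overall mean of 10, and the 9 summed to 1128, 6335 and 4193 normalized counts in N-FACS, N-T0 and N-T3. In N-T0, 7 of the 8 were higher than in N-FACS, and in N-T3, 6 of the 8. *Hml*, a defining hemocyte gene, had 47.3, 806 and 471 normalized counts in N-FACS, N-T0 and N-T3.

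No gene of these lists with values was at 0 in N-T0 or N-T3, and in N-FACS the gut genes lay between 0.85 and 4.51 normalized counts each. Neuron genes had the reverse pattern, with sums of 22243, 710.0 and 503 normalized counts in N-FACS, N-T0 and N-T3, and all 7 were lower in both allograft stages than in N-FACS. Most of the allograft sums was *elav*, at 457.0 in N-T0 and 533.8 in N-T3. The N-T3 means of *IA-2*, *Syt1*, *nSyb* and *brp* were solved as below 0, so that the N-T3 sum is less than *elav* alone. The neural stem cell list, which marks the tumor cells, summed to 74629, 83930 and 86492, and 1 of its 7 genes, *ase*, was lower in both allograft stages than in N-FACS. These values differed among the stages beside the levels of the P450 genes, and the part of host cells in the P450 differences was not tested.

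**Figure D4:**
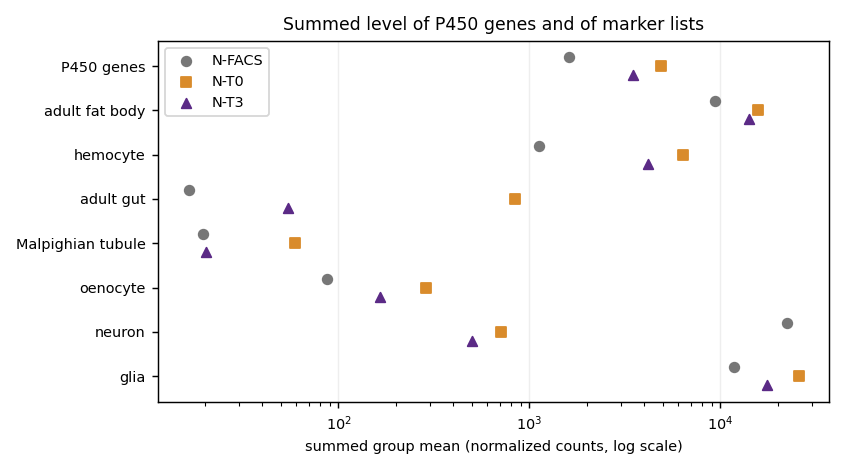
Summed group means in normalized counts (log axis) of the 53 P450 genes and of 7 marker lists in N-FACS, N-T0 and N-T3. The adult gut list stands at 843 in N-T0, against 16.4 in N-FACS, and the neuron list is highest in N-FACS at 22243.

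Many P450 genes of flies lie in tandem arrays that arose by duplication, and 28 of the 62 genes with coordinates lay within 5 kb of another P450 gene, in 10 clusters. The longest was on 2R from 14871366 to 14884046, with *Cyp6a22*, *Cyp6a17*, *Cyp6a23*, *Cyp6a19*, *Cyp6a9* and *Cyp6a20* in this order. All 6 had log2 ratios above 0 in both allograft stages against N-FACS. So did 32 of the 38 measured P450 genes in N-T0 and 31 in N-T3, and 4735 and 4525 of all 9327 features. Ratios above 0 are thus not read as particular to this cluster. In N-T3 against N-T0, *Cyp6a19* stood at −2.81, while its 5 neighbors lay between −0.49 and −0.14. *Cyp6a19* and *Cyp6a9* share 397 exon bases on opposite strands. In the cluster on 2R from 12185667 to 12192436, *Cyp6g1*, *Cyp6g2* and *Cyp6t3* had log2 ratios between 1.02 and 1.76 in both allograft stages against N-FACS, the lowest being that of *Cyp6g1* in N-T3. In the one on 2R from 9237512 to 9244410, *Cyp4p2* stood below 0 in both comparisons and *Cyp4p1* and *Cyp4p3* above 0. *Cyp28d1* and *Cyp28d2*, adjacent on 2L, had log2 ratios of −1.33 and −0.86 in N-T3 against N-T0.

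**Figure D5:**
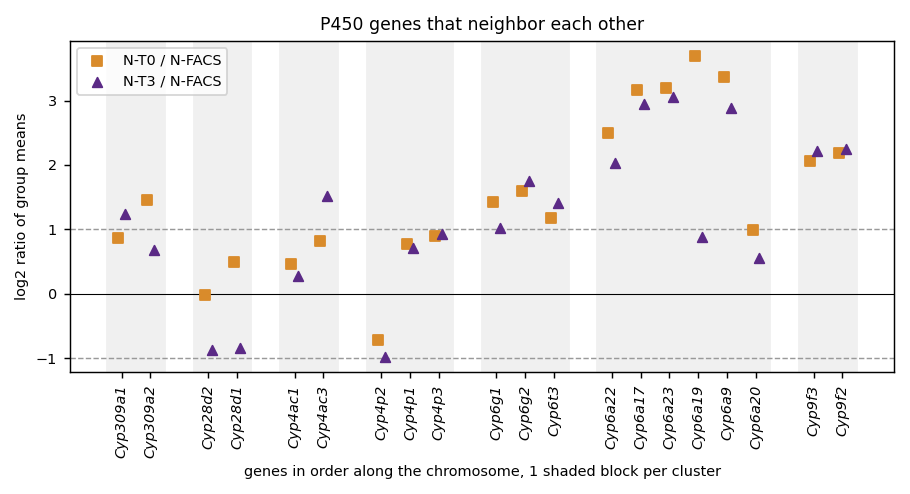
Log2 ratios of the N-T0 and N-T3 means over the N-FACS mean for P450 genes in clusters, in chromosome order with 1 shaded block per cluster; only clusters with at least 2 genes of an overall mean of 10 are drawn. In the 6-gene block, *Cyp6a19* has an N-T3 value of 0.88 beside an N-T0 value of 3.69, both lower bounds. Bounds are drawn here like other values.

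Exons of 11 of the 38 genes overlap those of another annotated feature. The longest overlaps were 919 bases of *Cyp303a1* with *heix* and 557 bases of *Cyp6v1* with an antisense RNA, both on opposite strands. Whether the counting used the strand is not given in the sources used here, so that reads of such pairs cannot be told apart.

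Of the 3 measured CYP2 genes, 1 was at least 2-fold higher in N-T0 than in N-FACS and 0 passed 2-fold in the other comparisons. *Cyp303a1*, needed for bristle development, had 17.2, 15.4 and 18.2 normalized counts in N-FACS, N-T0 and N-T3, and *Cyp305a1* 11.97, 10.96 and 12.19. *Cyp304a1* was the gene that was higher, by 2.64-fold in N-T0 against N-FACS, and its log2 ratio in N-T3 against N-FACS was 0.92. *Cyp18a1*, which inactivates 20-hydroxyecdysone, had 4.42, 3.44 and 3.85 normalized counts and was under the minimum level.

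Among the 15 genes under an overall mean of 10, a few varied with stage. *Cyp12e1* and *Cyp12b2*, both mitochondrial, had 21.1 and 12.8 normalized counts in N-FACS, against 4.00 and 2.96 in N-T0 and 1.51 and 3.23 in N-T3. *Cyp301a1*, which acts in cuticle formation, had 16.1, 3.64 and 9.62 in N-FACS, N-T0 and N-T3. The mitochondrial clan was thus divided between these genes and *Cyp12c1*, which was higher in the allografts. *Cyp4e3*, a permethrin tolerance gene of Malpighian tubules, was highest in N-T3, with 0.88, 7.24 and 20.9 normalized counts. *Cyp311a1*, a phospholipid regulator of the larval midgut, had 0.41, 5.82 and 3.83. *Cyp6d2* had 0.53, 16.3 and 12.2.

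The 10 genes in fewer than 3 tables were *Cyp6t1*, *Cyp6a2*, *Cyp49a1*, *Cyp308a1*, *Cyp313b1*, *Cyp6a21*, *Cyp310a1*, *Cyp9b1*, *Cyp28c1* and *Cyp4e1*. Their authors' means over pairs of groups ran between 1.49 and 5.47 normalized counts. *Cyp6a2*, a xenobiotic-inducible gene linked to DDT resistance, had 4.28 over N-T0 and N-FACS and 4.35 over N-T3 and N-T0. *Cyp6a8*, *Cyp12d1-d*, *Cyp12d1-p* and *Cyp4d21* were looked for as genes of known role, but no feature matched these symbols.

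Genes that serve the P450 enzymes were within 2-fold, as were most features. Of 5 redox partners, 0 passed 2-fold in any comparison, and 6762 of all 9327 features did not pass it in N-T0 against N-FACS either, so that nothing particular to these genes is read from it. The reductase gene *Cpr* had 562, 678 and 682 normalized counts in N-FACS, N-T0 and N-T3, and the mitochondrial ferredoxin gene *Fdx1* had 283, 386 and 541. Of the 6 regulators of the xenobiotic response with enough counts, 0 passed 2-fold in any comparison, which is not read as particular to them either. Of all 9327 features, 6792 did not pass it in N-T3 against N-FACS and 8711 in N-T3 against N-T0. The detoxification regulator *cnc*, the fly Nrf2, had 3210, 3948 and 3355 normalized counts in N-FACS, N-T0 and N-T3, and the nuclear receptor *Hr96* 394, 413 and 389. *Hnf4*, a nuclear receptor of oenocytes and fat body, had 64.9, 55.4 and 34.3.

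Ecdysone synthesis genes were low throughout. They summed to 75.4, 49.04 and 67.7 normalized counts over the 6 with values in N-FACS, N-T0 and N-T3. Of the 3 with an overall mean of 10, 0 passed 2-fold against N-FACS and 1, *spok*, was higher in N-T3 than in N-T0, at 26.0 normalized counts in N-T3, against 8.25 in N-T0, and 16.2 in N-FACS. *shd*, which makes the active hormone from ecdysone, had 22.5 in N-FACS, 1.85 in N-T0 and 2.72 in N-T3.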

How the data were processed

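RNA of 9 libraries, 3 a group, was sequenced. The authors aligned the reads with STAR, counted them per gene with featureCounts and compared pairs of groups with DESeq2; the reads were checked with FastQC 0.11.9. Of the 3 deposited comparison tables, only the base mean was used, a score that the authors formed as the mean of the counts of 6 libraries after division by size factors. The other columns, which hold the authors' log2 fold changes, standard errors, test statistics and p-values before and after adjustment, were not used. Depth per library is unknown. Whole lines are quoted again in 2 tables, which were read in 2 passes.

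The 3 tables were set on 1 scale by the median ratio of base means over features of at least 100 in all 3, with factors of 1.04 for N-T3 with N-FACS and 0.958 for N-T3 with N-T0. The group means were then solved, since each base mean is the average of its 2 group means. Of 9327 features, a solved mean fell below 0 for 0 in N-FACS, 0 in N-T0 and 78 in N-T3, the lowest at −0.639% of the sum of the 3 group means. The solution was tried on simulated data only for changes shared by N-T0 and N-T3, in far fewer features than differed here. A difference between N-T0 and N-T3 was not simulated. Python 3.11.15, numpy 2.4.6, pandas 2.3.3 and matplotlib 3.10.9 were used. Coordinates are of BDGP6.54 (Ensembl release 115), looked up by FlyBase identifier; the authors mapped to an earlier release.

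Named genes were the 10 members of the largest log2 ratio in each comparison, the 10 of the highest mean over the groups and members of known role. *Cyp4ac3*, *Cyp4d1*, *Cyp4d8*, *Cyp4p1*, *Cyp4p3*, *Cyp6d2*, *Cyp6t2Psi*, *Cyp12b2*, *Cyp12e1*, cluster neighbors and genes at the limit were chosen after their values were seen. There were 13 lists, with 80 of 81 symbols matched. The trachea list summed to 119.8, 102.8 and 85.9 normalized counts in N-FACS, N-T0 and N-T3, and the muscle list to 35.1, 76.2 and 45.7. Members and lists were chosen with earlier results of these data known. Alternatives were other minimum levels, limits, scales and floors; the inclusion of *Cyp1* was added after seeing the data.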

Additional observations from a re-analysis of the deposited data

How the results depend on the processing

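No paired analysis was possible because the tables hold no values per library, and leaving out single replicates was not run for the same reason. Over the 38 genes and the alternative scales and floors, 0 ratios past 2-fold changed sign. With an overall mean of at least 30, 11 genes of 18 were higher and 0 lower in N-T0 than in N-FACS, 11 and 0 in N-T3 than in N-FACS, and 1 was lower in N-T3 than in N-T0, with a median of −0.22. Without a minimum, 5 of 53 genes were lower in each allograft stage than in N-FACS, 3 were higher in N-T3 than in N-T0, and the medians were 1.00 and 0.88 for N-T0 and N-T3 against N-FACS. Shares of all features with a minimum of 30, or without one, were not computed. At a log2 limit of 0.5, 2 and 5 genes were lower in N-T0 and N-T3 than in N-FACS, and 1 was higher and 13 lower in N-T3 than in N-T0. A scale from features of at least 1000 gave medians of 1.56 and 1.44, and base means left unscaled gave 1.17 and 1.05. Without scaling the median of all features lay at −0.22 and −0.14, with 928 higher and 1547 lower in N-T0 than in N-FACS, in place of 1311 and 1254. A floor of 10% of the sum gave a median of 0.98 in N-T3 against N-FACS. With *Cyp1*, the sums were 35803, 26114 and 22217 normalized counts in N-FACS, N-T0 and N-T3. Of 684 such values, 161 moved by over 0.1 in log2. Across 2-fold went 13, of 10 genes, 3 of them by at most 0.1. Calls lost were those of *Cyp4g1* (0.73) and *Cyp6w1* (0.95) in N-T3 against N-FACS at the 10% floor, of *Cyp6g1* in N-T3 against N-FACS with a scale from neuron genes (0.998) and unscaled (0.78), and of *Cyp12a4* (0.96) and *Cyp6t3* (0.84) in N-T0 against N-FACS unscaled. The others were calls gained. The unknown depth limits what can be said of genes near the floor, and the lack of library values leaves each ratio without an error.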

Other observations

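Some neighboring P450 genes kept nearly the same proportion at all stages. *Cyp6a23* stood at 0.155, 0.159 and 0.167 times the normalized count of *Cyp6a17* in N-FACS, N-T0 and N-T3, and *Cyp9f3* at 1.06, 0.974 and 1.03 times that of *Cyp9f2*. Others did not: *Cyp6a19* stood at 2.16, 1.25 and 0.2505 times the normalized count of the overlapping *Cyp6a9*, and *Cyp4p1* at 0.232, 0.650 and 0.750 times that of *Cyp4p2*. These ratios, taken over counts and not per length, compare group means without errors, were chosen after the values were seen, and were not tested.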
